A study of Mus musculus with 8 samples.

Results

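The 10 genes described here encode stromal cytokines and receptors of the myeloid growth factor (CSF) and interleukin-6 (IL-6) families. They were chosen by symbol as Csf1, Il34, Csf2, Csf3, Il6, Lif, Il11, Il6st, Lifr and Osmr, and each matched 1 of the 52636 gene rows through its gene ID. The cells were leptin receptor positive (LEPR+) mesenchymal stem cells sorted from the marrow of C57BL/6 mice, and polyA RNA was sequenced. One group of mice had received LTβR-Ig, a soluble decoy receptor that captures lymphotoxin and LIGHT. The other had received HEL-Ig, an IgG1 against hen egg lysozyme, as control. Both proteins were injected into the vein once a week for 3 weeks at 150 µg. There were 4 LTβR-Ig and 4 control libraries, which the study's design counts as 4 pairs without saying what a pair shares. Ages are not in the labels, nor is the number of mice behind a library, and every p-value below therefore rests on library-to-library spread, which may be technical. The treatment was systemic and not limited to LEPR+ cells.

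Total gene counts lay between 52378101 and 64403177 per library. Lepr, Cxcl12, Kitl and 9 other stromal markers summed to 35389 to 44525 CPM (counts scaled to library size and composition) in LTβR-Ig and 31305 to 42224 CPM in control libraries. Within this list Kitl and Pdgfra were lower and Cxcl14 higher in all 4 LTβR-Ig libraries than in any control, without passing the test (edgeR adjusted p = 0.125, 0.649 and 0.416). Of all genes tested, 2.53% were lower and 2.36% higher in this way. Markers of macrophages and monocytes (11 genes, all of them above 0) summed to 1095 to 2850 CPM in LTβR-Ig and 989 to 2353 CPM in control libraries. Neutrophil markers (9 genes, all above 0) summed to 2856 to 6040 CPM in LTβR-Ig and 2573 to 6172 CPM in control libraries. Erythroid markers (6 genes, all above 0) summed to 15379 to 35935 CPM in LTβR-Ig and 15334 to 47467 CPM in control libraries. Median log2 fold changes were 0.53 for osteoblast, 0.71 for endothelial, 0.62 for megakaryocyte and -1.75 for mast cell and basophil markers (8, 8, 6 and 5 genes). The sums of these lists overlapped between groups, and none of their genes passed an edgeR adjusted p of 0.05. At an unadjusted p under 0.05, 3 osteoblast markers were higher, against 3.39% of all genes. The gate had excluded CD45+ and Ter119+ cells, and the part of these markers in the results was not tested. In bulk samples, fewer cells of a type and less RNA per cell cannot be told apart.

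As background, CSF-1 and IL-34 are the ligands of the receptor CSF1R, through which marrow monocytes, macrophages and osteoclast precursors survive and mature. GM-CSF (Csf2) and G-CSF (Csf3) drive the production of macrophages and neutrophils, and stromal cells make them mostly upon inflammation. The IL-6 family signals through gp130, the shared chain encoded by Il6st. IL-6 and IL-11 bring a pair of gp130 chains together after binding their own α receptors, LIF pairs gp130 with the LIF receptor, and oncostatin M pairs it with the oncostatin M receptor in mice. Signalling runs through JAK kinases and STAT3, which induces the feedback inhibitor SOCS3. Il6, Csf2 and Csf3 are classical targets of NF-κB, the factor that the lymphotoxin β receptor activates.

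No member passed the test between LTβR-Ig and control libraries. Of the 10 members, 8 passed the filter on low counts, and Csf2 and Csf3 did not. In the quasi-likelihood F test of edgeR, adjusted over 16045 genes, 0 of the 8 passed an adjusted p of 0.05, against 0.0374% of all genes tested. At an unadjusted p under 0.05 the count was also 0 of 8, against 6.32% of all genes, and groups that do not overlap were found for 0 of 8, against 4.89%. With 8 genes, a count of 0 does not set the members apart from all genes. DESeq2 and limma-voom also called 0 members, against 1.26% and 0.106% of all genes they tested. The median log2 fold change was -0.03 over the 8 members and 0.00 over all genes tested, and 4 members had a positive and 4 a negative value.

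The levels of the members fell into separate ranges when divided by exon length (CPM per kilobase of merged exons, mean over all 8 libraries). Il34 stood at 95.9, Csf1 at 91.2 and Lifr at 87.4 CPM per kilobase, and the ranges of these 3 genes over the libraries overlapped (59.6 to 127, 73.9 to 104 and 60.4 to 157). Il6st followed at 19.0 and Osmr at 8.33 CPM per kilobase, with ranges of 6.57 to 25.2 and 5.48 to 11.8 that also overlapped. Il6 (0.392), Lif (0.365), Il11 (0.251) and Csf2 (0.179) lay below 0.4 CPM per kilobase, where neighbours did not differ beyond their spread, and Csf3 was at 0. Merged exons include those of rare isoforms, so the levels of genes with long merged exons, such as Il6st with 11099 bases, may be understated.

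**Figure D1:**
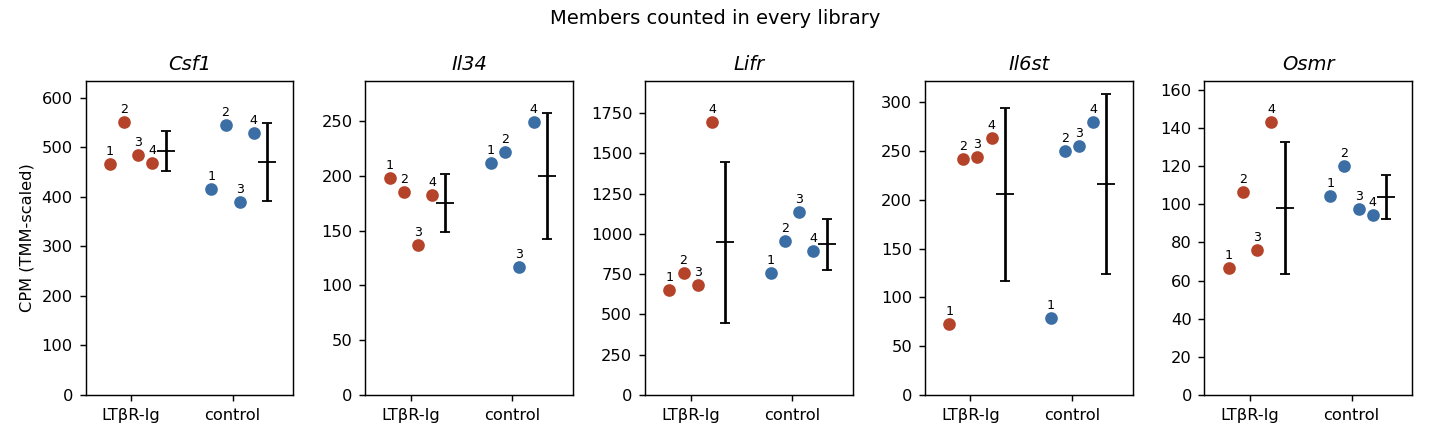
CPM of the 5 members counted in every library, with the linear axes starting at 0. Numbered points are libraries by replicate number (LTβR-Ig left, control right), and bars give the mean and SD of 4. LTβR-Ig and control libraries overlap for all 5 genes, replicate 1 of each group is low for Il6st, and LTβR-Ig replicate 4 is high for Lifr.

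Csf1 (ENSMUSG00000014599.10, chromosome 3, 107741048 to 107760469 on the minus strand in mm10) had the narrowest interval of the members with all 8 libraries and no block. Its level was 467, 551, 485 and 468 CPM in LTβR-Ig replicates 1 to 4, against 415, 546, 390 and 530 CPM in control replicates 1 to 4. The groups overlapped, and the LTβR-Ig libraries lay within the range of the controls apart from replicate 2, which was just above it. Csf1 averaged 493 ± 39.8 CPM in LTβR-Ig and 470 ± 78.9 CPM in control libraries (SD, n = 4 each). Its log2 fold change was 0.07 (SE 0.13), and the 95% interval of -0.23 to 0.37 corresponds to 0.853 to 1.29 of control (edgeR adjusted p = 1). Changes in Csf1 within these bounds could not be told from no change with these libraries. The interval is not adjusted for the number of genes tested, so its bounds are not the smallest change that would have been called.

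Il34 (ENSMUSG00000031750.15, chromosome 8, 110741829 to 110805924, minus strand) encodes the other CSF1R ligand, known as the main ligand in skin and brain. Its level was 198, 185, 137 and 182 CPM in LTβR-Ig replicates 1 to 4, against 212, 222, 117 and 249.2 CPM in control replicates 1 to 4. The groups overlapped only through control replicate 3, the lowest of all 8 libraries. The log2 fold change was -0.19 (SE 0.23, 95% interval -0.70 to 0.32, edgeR adjusted p = 1), and without control replicate 3 it was -0.37 (unadjusted p = 0.0352, edgeR adjusted p = 0.736). Leaving out any other single library gave Il34 an unadjusted edgeR p of 0.37 to 0.79. Il34 overlaps the antisense loci Gm15894 and Gm15895, and because the strand setting of the counting is not given in the sources used here, their reads cannot be told apart. Within each library, Csf1 made up 46.7 to 56.7% of the summed Csf1 and Il34 level per kilobase in LTβR-Ig and 42.1 to 55.3% in control libraries, so transcripts of the 2 ligands were counted at like levels in both groups.

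The other CSF genes were close to or at 0. Csf2 (ENSMUSG00000018916.5, chromosome 11, 54247271 to 54249667, minus strand) had 65 counts in LTβR-Ig replicate 3 and 0 in the other 7 libraries. Csf3 (ENSMUSG00000038067.2, chromosome 11, 98701263 to 98703629, plus strand) had 0 counts in all 8 libraries. A count of 0 allows up to 3 counts, which is 0.0486 to 0.0584 CPM in LTβR-Ig and 0.0458 to 0.0535 CPM in control libraries, counting error only and with the values taken as reads counted. Csf2 overlaps the antisense locus Gm12223, from which its 65 counts cannot be told apart. LTβR-Ig replicate 3 also had the highest sums of macrophage and monocyte markers (2850 CPM) and of endothelial markers (242 CPM) of all 8 libraries, and their part in the Csf2 counts was not tested.

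Among the IL-6 family ligands, Il6, Lif and Il11 had few counts, which came and went between libraries of 1 group. Il6 (ENSMUSG00000025746.11, chromosome 5, 30013114 to 30019981, plus strand), the founding cytokine of the family, had 0, 154, 0 and 54 counts in LTβR-Ig replicates 1 to 4, against 0, 144, 0 and 86 counts in control replicates 1 to 4. Il6 was thus counted in replicates 2 and 4 of each group and in no other library. Its log2 fold change was 0.11, with a 95% interval of -4.91 to 5.13 that allows large changes either way (edgeR adjusted p = 1). Il11 (ENSMUSG00000004371.14, chromosome 7, 4772373 to 4782859, minus strand), a cytokine of bone and fibroblast biology, had 0, 45, 38 and 43 counts in LTβR-Ig replicates 1 to 4, against 0, 0, 19 and 87 counts in control replicates 1 to 4. The Il11 groups overlapped (log2 fold change 0.37, 95% interval -3.88 to 4.62, edgeR adjusted p = 1).

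Lif (ENSMUSG00000034394.14, chromosome 11, 4257557 to 4272514, plus strand) encodes leukaemia inhibitory factor. It had 50, 73, 26 and 19 counts in LTβR-Ig replicates 1 to 4, against 0, 271, 186 and 131 counts in control replicates 1 to 4. The control group thus held both the lowest library and the 3 highest. The log2 fold change of Lif was -1.68 (SE 1.33, 95% interval -4.70 to 1.34, edgeR adjusted p = 1). Control replicate 1 decided the width of this interval: without it the log2 fold change was -2.09 (95% interval -3.75 to -0.44, unadjusted p = 0.0196, edgeR adjusted p = 0.725), and limma-voom with sample weights gave 0.14 over all 8 libraries. Leaving out any other single library gave Lif an unadjusted edgeR p of 0.21 to 0.42. At these counts the direction of Lif could not be settled.

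**Figure D2:**
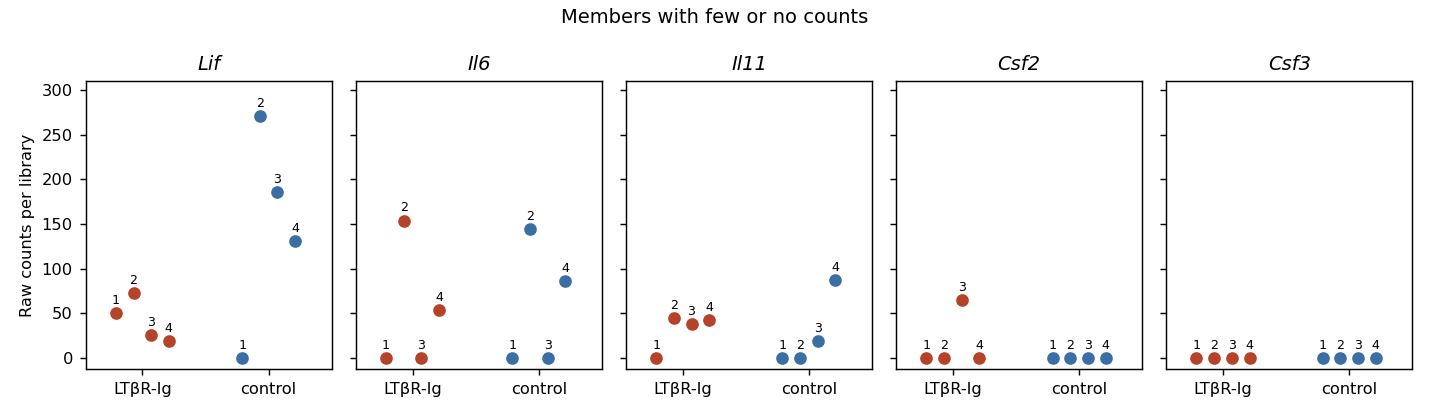
Raw counts per library of the 5 members with few or no counts, on a shared linear axis. Numbered points are libraries by replicate number, LTβR-Ig left and control right. Il6 was counted only in replicates 2 and 4 of each group, Lif in all but control replicate 1, Csf2 in LTβR-Ig replicate 3 alone and Csf3 in none.

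To show the regulatory sequence beside these levels, the 250 bases upstream of the RefSeq start (build GRCm38.p6) were searched in 8 members for the NF-κB consensus, on both strands. Windows for Il34 and Csf3 were not used here, and Il11 and Lifr had a pair of windows each, which made 10. The RefSeq start can differ from the annotated end of the gene. The Csf2 window (54249900 to 54250149) did not reach the annotated start at 54249667, so the bases between were not searched. The windows of Osmr and Lifr, and the Il11 window at 4778142 to 4778391, lay inside the annotated gene. The consensus was found in Csf1 and Il6 and in none of the other windows, against 3.90% of the 32851 windows of all genes. The STAT motif TTCNNNGAA was found in none of the 10, against 7.02% of all windows. The Csf1 window is chr3:107760470-107760719, printed 5′ to 3′ along the minus strand, and the Il6 window is chr5:30012864-30013113 on the plus strand. Capitals mark the consensus, which reads along the printed strand in Il6, from 44 to 35 bases before the start, and along the opposite strand in Csf1, from 154 to 145 bases before it. No other motif was searched, and a match is a description of the letters only.
Csf1: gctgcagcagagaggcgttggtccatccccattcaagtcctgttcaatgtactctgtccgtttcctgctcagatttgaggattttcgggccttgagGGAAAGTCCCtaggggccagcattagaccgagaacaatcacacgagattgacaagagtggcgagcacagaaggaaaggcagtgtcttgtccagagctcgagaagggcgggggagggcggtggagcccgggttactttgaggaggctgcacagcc
Il6: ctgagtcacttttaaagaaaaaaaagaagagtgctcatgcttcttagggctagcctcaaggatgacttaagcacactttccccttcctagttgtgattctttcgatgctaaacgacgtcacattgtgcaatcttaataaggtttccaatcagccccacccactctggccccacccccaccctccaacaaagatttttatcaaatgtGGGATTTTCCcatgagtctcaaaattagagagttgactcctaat
The 2 genes that carry the consensus were far apart in level, Csf1 with 73.9 to 104 and Il6 with 0 to 1.20 CPM per kilobase over all 8 libraries.

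The receptors were all counted in every library. Il6st (ENSMUSG00000021756.12, chromosome 13, 112464070 to 112510086, plus strand), which encodes gp130, stood at 72.9, 242, 243 and 264 CPM in LTβR-Ig replicates 1 to 4, against 78.9, 250, 256 and 280 CPM in control replicates 1 to 4. Replicate 1 of each group was low, and the other 3 libraries of the groups lay side by side. With all libraries the log2 fold change was -0.07 (SE 0.46, 95% interval -1.12 to 0.98, edgeR adjusted p = 1). With both libraries numbered 1 left out, a setting chosen after the values were seen, it was -0.07 with an SE of 0.11 and a 95% interval of -0.32 to 0.19. Each LTβR-Ig library was below the control library of its own number, but what libraries of the same number share is not given. The sign of Il6st was not settled, since the log2 fold change turned to 0.21 without LTβR-Ig replicate 1.

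Lifr (ENSMUSG00000054263.11, chromosome 15, 7090614 to 7197489, plus strand), encodes the receptor of LIF. It stood at 651, 757, 685 and 1696 CPM in LTβR-Ig replicates 1 to 4, against 760, 953, 1139 and 891 CPM in control replicates 1 to 4. LTβR-Ig replicates 1 to 3 lay below all 4 controls and LTβR-Ig replicate 4 above all of them. The log2 fold change was 0.02 (SE 0.31, 95% interval -0.68 to 0.72, edgeR adjusted p = 1). Without LTβR-Ig replicate 4 it was -0.42 (95% interval -0.76 to -0.09, unadjusted p = 0.0192, edgeR adjusted p = 0.651), so this library widened the interval. Leaving out any other single library gave Lifr an unadjusted edgeR p of 0.62 to 0.99. At 0.02 the sign of Lifr was not settled, since it also turned without control replicate 1 (-0.067) or 4 (-0.0051).

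Osmr (ENSMUSG00000022146.12, chromosome 15, 6813577 to 6874969, minus strand), the receptor chain for oncostatin M, neighbours Lifr at a distance of 215644 bases. It stood at 66.3, 107, 75.9 and 143 CPM in LTβR-Ig replicates 1 to 4, against 104, 120, 97.3 and 94.3 CPM in control replicates 1 to 4. LTβR-Ig replicate 4 was again the highest library and the groups overlapped. For Osmr the log2 fold change was -0.09 (SE 0.23, 95% interval -0.61 to 0.44, edgeR adjusted p = 1), and without LTβR-Ig replicate 4 it was -0.33 (edgeR adjusted p = 0.938). The sign of Osmr was not settled, since it turned without LTβR-Ig replicate 1 (0.070) or 3 (0.027). Per kilobase, Lifr exceeded Osmr 7.98- to 13.3-fold in LTβR-Ig and 8.20- to 13.2-fold in control libraries.

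**Figure D3:**
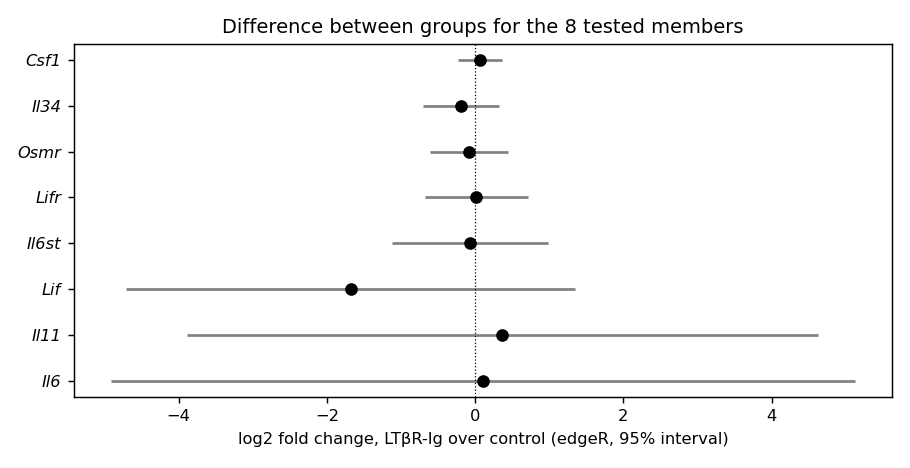
Log2 fold change of the 8 tested members, LTβR-Ig over control, with the 95% interval from edgeR (points and lines). All intervals include 0, from -0.23 to 0.37 for Csf1 to -4.91 to 5.13 for Il6.

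The genes whose pattern over the 8 libraries came closest to each abundant member were found by the root mean square difference of log2 CPM, each gene centred on its own mean, among 10573 genes. Csf1 came closest to Phc2 (0.07) and Akap2 (0.08), and Il34 to Rlim and Wrap53 (0.12 each). Il6st came closest to Pam (0.30), an enzyme of peptide amidation, which stood at 135 CPM in LTβR-Ig replicate 1 and 89.8 CPM in control replicate 1 against 242 to 406 CPM and 294 to 368 CPM in the other LTβR-Ig and control libraries, and next to Fgd4 (0.36). Lifr came closest to P3h2 (0.12), a collagen prolyl hydroxylase, and Ghr (0.16), the growth hormone receptor, and Osmr to Nfib and Aar2 (0.14 each). These are the smallest of many differences and carry no test.

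High values in LTβR-Ig replicate 4 extended beyond Lifr and Osmr. Socs2, a feedback inhibitor of growth hormone and STAT5 signalling, stood at 204 CPM there, against 39.0 to 57.3 CPM in the other LTβR-Ig and 41.3 to 87.7 CPM in control libraries. Il4ra, the α chain of the IL-4 receptor, stood at 253 CPM, against 32.8 to 39.7 CPM in the other LTβR-Ig and 41.7 to 98.1 CPM in control libraries. Stat5a stood at 368 CPM, against 79.3 to 209 CPM in the other LTβR-Ig and 80.3 to 239 CPM in control libraries. Ghr stood at 776.5 CPM, against 249.1 to 334 CPM in the other LTβR-Ig and 354 to 435 CPM in control libraries. The same library had the highest sum of dissociation and immediate early genes (12 genes, 762 CPM against 209 to 529 CPM in the other LTβR-Ig and 242 to 409 CPM in control libraries) and the lowest total count, and the part of these in the values was not tested. Socs2, Il4ra and Stat5a were named after their values were seen. Ghr was chosen as close to Lifr over these same libraries and so shares its pattern by choice. Other pathway genes differed in this. Among those not highest in this library, Cish stood at 4.61 CPM, against 9.51 CPM in LTβR-Ig replicate 2. Pim1 stood at 108 CPM, against 133 CPM in control replicate 3. Among those that were highest there were Stat5b at 256 CPM, Jak1 at 366 CPM and Stat3 at 215 CPM. Fos (395 CPM), Zfp36 (346 CPM) and Il17ra (30.8 CPM) were also highest there.

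**Figure D4:**
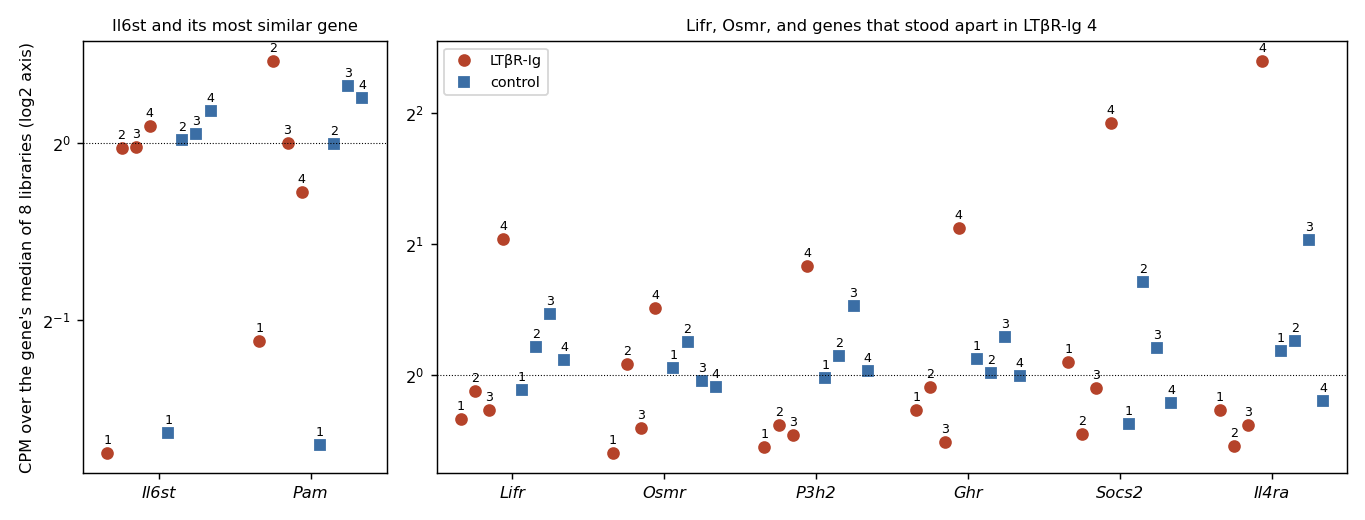
CPM of each gene divided by its median over the 8 libraries, on a log2 axis. Circles are LTβR-Ig and squares control libraries, numbered by replicate. Replicate 1 of both groups is low for Il6st and Pam (left), and LTβR-Ig replicate 4 is the highest library for all 6 genes at the right. Pam was chosen for its likeness to Il6st, and P3h2 and Ghr for their likeness to Lifr, over these same libraries.

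The rest of the pathway was described by 6 lists of 60 genes, of which 56 were tested. By edgeR 0 of the 56 passed an adjusted p of 0.05 over all genes, in either direction. At an adjusted p of 0.05, limma-voom called 0 of them and DESeq2 called 1, against 0.106% and 1.26% of all genes. At an unadjusted p under 0.05 in edgeR, 1 was lower and 0 were higher, against 2.93 and 3.39% of all genes tested. The groups did not overlap for 2 of the 56, both lower with LTβR-Ig (2.53% of all genes were lower and 2.36% higher in this way). The median log2 fold change over the 56 was 0.01.

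The gene lower at an unadjusted p under 0.05 was Fgl1, which encodes a secreted fibrinogen-like protein known as an IL-6-induced product of human hepatocytes. Its level was 1.98, 3.53, 4.46 and 9.83 CPM in LTβR-Ig replicates 1 to 4, against 24.6, 23.4, 19.7 and 17.4 CPM in control replicates 1 to 4. All 4 LTβR-Ig libraries were below all 4 controls, at 4.95 ± 3.41 and 21.3 ± 3.30 CPM (SD, n = 4 each) in LTβR-Ig and control libraries. The log2 fold change of Fgl1 was -2.11 (SE 0.46, 95% interval -3.15 to -1.06), with an unadjusted p of 0.00143 and an edgeR adjusted p of 0.23, so it did not pass over all genes. DESeq2 called it (adjusted p = 0.000955), and limma-voom did not (adjusted p = 0.103). The other 17 genes of its list, the feedback and target genes of gp130 and STAT3, were not past an unadjusted p of 0.05. Socs3, the main feedback inhibitor of gp130, had 132 ± 50.3 CPM in LTβR-Ig and 122 ± 32.2 CPM in control libraries (SD, n = 4 each), and the immediate early gene Fos, highest of the list per kilobase, differed by 0.52 on the log2 scale (95% interval -0.42 to 1.46, edgeR adjusted p = 1). The list's median was 0.09 over 18 genes. The lists were chosen with earlier results of these data known, so the place of Fgl1 in this list is no test of gp130 signalling.

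The α receptors that give cells their response to IL-6 and IL-11 were unequal in level. Il11ra1, the IL-11 receptor, had 37.6 ± 3.08 CPM in LTβR-Ig and 40.1 ± 0.76 CPM in control libraries (SD, n = 4 each), and its 95% interval of -0.37 to 0.19 was among the narrowest (log2 fold change -0.09, edgeR adjusted p = 1). Il6ra, the IL-6 receptor, had 3.09 ± 1.64 CPM in LTβR-Ig and 2.00 ± 1.52 CPM in control libraries (SD, n = 4 each). Its log2 fold change was 0.63 (95% interval -1.08 to 2.34, edgeR adjusted p = 1). Per kilobase and over all libraries, Il11ra1 had 8.69 and Il6ra 0.294 CPM. Of the other ligands, Ebi3, a subunit shared by IL-27 and IL-35, had both the smallest p and the highest level, at 15.9 ± 6.69 CPM in LTβR-Ig and 11.2 ± 3.51 CPM in control libraries (SD, n = 4 each, log2 fold change 0.51, edgeR adjusted p = 0.987).

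Of the signal transducers, Jak2 had the smallest p, with -0.33 on the log2 scale (95% interval -0.71 to 0.05, edgeR adjusted p = 0.876), and Jak1, the kinase most used by gp130, had 0.08 (95% interval -0.33 to 0.48). Stat3 had 170 ± 31.5 CPM in LTβR-Ig and 169 ± 24.2 CPM in control libraries (SD, n = 4 each, 95% interval -0.34 to 0.36). Among inducers and regulators, Tnfrsf1a, a TNF receptor, had 231 ± 23.1 CPM in LTβR-Ig and 230.4 ± 19.2 CPM in control libraries (SD, n = 4 each, 95% interval -0.24 to 0.24). Nfkbiz, a nuclear IκB protein needed for Il6 induction in mouse macrophages, stood at 12.7, 8.62, 6.15 and 14.4 CPM in LTβR-Ig replicates 1 to 4, against 16.5, 15.6, 15.04 and 16.1 CPM in control replicates 1 to 4. All 4 LTβR-Ig libraries were lower for Nfkbiz, but at -0.60 on the log2 scale (95% interval -1.24 to 0.05) it did not pass (edgeR adjusted p = 0.837).

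**Figure D5:**
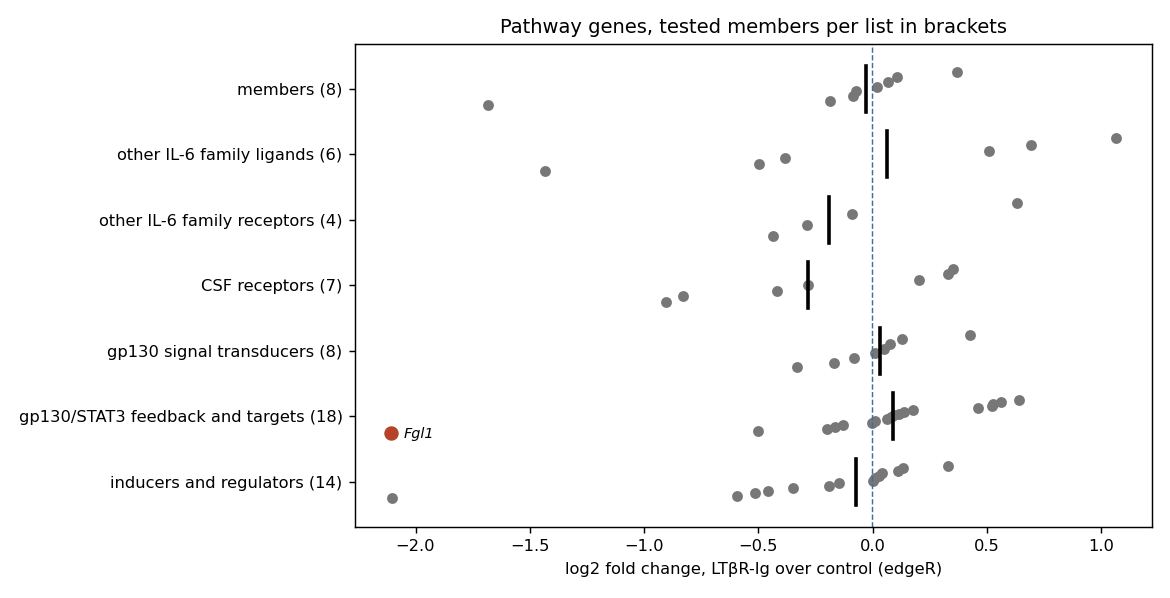
Log2 fold change, LTβR-Ig over control, of every tested gene (grey points) in the members and the 6 pathway lists, with the list medians (black bars) and the median of all genes (dashed line). Fgl1 (red) is the only gene shown with an unadjusted p under 0.05.

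The haematopoietic receptors of the CSFs are known from myeloid cells. Csf1r, the receptor of CSF-1 and IL-34 on macrophages, stood at 18.3, 16.6, 66.4 and 37.0 CPM in LTβR-Ig replicates 1 to 4, against 22.0, 27.7, 76.4 and 42.0 CPM in control replicates 1 to 4. Replicate 3 of each group was highest for Csf1r, and the same libraries had the highest sums of macrophage and monocyte markers, a list that holds Csf1r, within their group (2850 and 2353 CPM). The part of residual macrophages in these values was not tested. Sdc1, a syndecan that binds IL-34 and also marks plasma cells, had the smallest p of this list, with 317 ± 62.8 CPM in LTβR-Ig and 252 ± 45.3 CPM in control libraries (SD, n = 4 each, log2 fold change 0.33, 95% interval -0.07 to 0.74, edgeR adjusted p = 0.912).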

How the data were processed

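LEPR+ cells were sorted from collagenase-digested long bone marrow as live cells negative for CD45, Ter119, CD31 and CD144, sorted again into lysis buffer and sequenced as paired reads, per the labels' protocols. For 52636 genes in 8 libraries, the authors deposited raw whole-number counts, and HISAT2, HTSeq and the build mm10 are named, per the submitters' processing notes. The table's form (a gene_id column, no summary rows of HTSeq) is also that of a helper script of the assembler StringTie, which derives counts from coverage. Which tool made the values could not be settled, so a count may not be a number of reads counted directly. Tool versions, the annotation release and any strand setting were not given in the sources used here. Groups and replicate numbers came from the sample titles.

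The table holds gene IDs without symbols. IDs without version were matched to GENCODE M21 (52403 matched) for coordinates and merged exon lengths, and symbols came from a table of gene names by ID. The upstream sequences came from RefSeq on GRCm38.p6. Between replicates, chi-square per degree of freedom over genes was 119 to 225, so no library was taken as a duplicate.

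Counts were tested with edgeR 4.0.16 in R 4.3.3 (TMM scaling, filterByExpr with a minimum count of 10 and total of 15, robust quasi-likelihood F test, all 8 libraries, no covariate), with p-values adjusted by Benjamini-Hochberg over 16045 genes and called at 0.05. Levels are CPM on TMM-scaled library sizes. Standard errors are the log2 fold change over the square root of F. The test was also run on simulated counts, whose outcome is not given here. They were drawn with the spread fitted to these data, with changes set only in genes above 5 CPM. That run therefore does not cover changes in Il6, Lif or Il11. The closest genes to a member were taken from genes of at least 5 CPM, with 0.5 CPM added before the log2. The 10 members and all lists were chosen with earlier results of these data known. From each pathway list the text names genes with an unadjusted p under 0.05, or else the smallest p, and the gene with the highest level per kilobase. Other genes were named after their values were seen, among them Socs3, Stat3, Csf1r, Cntfr, Ptgs2 and Osm.

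As alternatives, edgeR was rerun with size factors from DESeq2, with upper-quartile scaling, without the filter, with a filter of at least 10 counts in 4 libraries and a mean of 5 CPM, with a block for replicate number, and without each library in turn. Other tools were DESeq2 1.42.0 and limma-voom (limma 3.58.1, sample weights). Leaving out both libraries numbered 1 was added after seeing the data.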

Additional observations from a re-analysis of the deposited data

Results flagged for a closer look

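In 123 groups of 4 libraries, of the members, the pathway genes of at least 5 CPM and the closest genes, 13 held 1 library far from the other 3. Chance gives this for about 1 in 20 groups, and genes chosen as closest to a member share its pattern by choice.

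Il6st stood apart at 72.9 CPM in LTβR-Ig replicate 1 (others 242 to 264 CPM) and at 78.9 CPM in control replicate 1 (others 250 to 280 CPM). LTβR-Ig replicate 4 stood apart for Lifr at 1696 CPM (others 651 to 757 CPM), for Socs2 at 204 CPM, for Il4ra at 253 CPM, for P3h2 at 140.1 CPM (others 53.6 to 60.3 CPM) and for Ghr at 776.5 CPM. Csf2 stood apart at 1.146 CPM in LTβR-Ig replicate 3, with 0 in the others.

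LTβR-Ig replicate 2 stood apart for the IL-33 receptor gene Il1rl1 at 19.7 CPM (others 5.04 to 7.28 CPM), for Tlr4 at 33.6 CPM (others 48.1 to 50.5 CPM) and for Tnfrsf1a at 265 CPM (others 216 to 222 CPM). Il1rl1 also stood apart at 19.5 CPM in control replicate 4 (others 11.7 to 12.2 CPM). Wrap53 stood apart at 14.2 CPM in control replicate 3 (others 23.3 to 24.6 CPM).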

How the results depend on the processing

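No member was called under any setting run, and the stricter filter tested 5 of them, without Il6, Lif and Il11. Over all genes edgeR called 6 lower and 0 higher, where 470 and 544 had an unadjusted p under 0.05. DESeq2 called 111 lower and 90 higher, limma-voom 14 and 3, the stricter filter 17 and 5, no filter 2 higher, edgeR with DESeq2 size factors 2 higher, and both libraries numbered 1 left out gave 3 and 2. Leaving out each library gave 2 to 7 lower (2 without control replicate 3) and 0 to 2 higher. Of the pathway genes DESeq2 called 1, Fgl1. Limma-voom turned the sign of Il6 (-0.45), Lif (0.14) and Lifr (-0.054), and both libraries numbered 1 left out turned Osmr (0.063), none past the threshold, and the cause was not tested. Leaving out each library gave log2 fold changes of -0.0063 to 0.15 for Csf1, -0.37 to -0.06 for Il34, -1.39 to 1.02 for Il6, -2.14 to -1.29 for Lif, -0.044 to 2.37 for Il11, -0.35 to 0.21 for Il6st, -0.42 to 0.17 for Lifr, -0.33 to 0.070 for Osmr and -2.68 to -1.83 for Fgl1.

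The design names 4 pairs but not what they share, and the data gave no firm sign of pairing by number. Deviations of same-numbered libraries from the group means correlated at 0.13, 0.05, 0.09 and -0.03 for numbers 1 to 4, across genes. LTβR-Ig replicate 2 correlated best with control replicate 2. LTβR-Ig replicates 1, 3 and 4 correlated best with control replicates 2 (0.17), 4 (0.16) and 3 (0.13). With the replicate number as a block 1 gene was called lower, no member passed, and Il6 had -0.033 and Lifr -0.098. For Il6st the block gave -0.079 (SE 0.082, 95% interval -0.28 to 0.12), narrower than for Csf1 (0.080, SE 0.11), and without both libraries numbered 1 the SE was also smaller for Il6st (0.11) than for Csf1 (0.16). Without a filter Csf2 had an unadjusted p of 0.0688, from 1 library. Il6, Il11, Lif, Csf2 and Csf3 had at most 271 counts in a library, and Il6 and Lif varied between 0 and 154 or 271 counts among libraries of like depth.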

Other observations

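Cntfr, the receptor of ciliary neurotrophic factor, was not tested because of low counts, with 0 counts in all 4 LTβR-Ig libraries, against 29, 82, 49 and 0 counts in control replicates 1 to 4. Ptgs2, which encodes cyclooxygenase 2, had 0.967 ± 0.725 CPM in LTβR-Ig and 4.17 ± 3.198 CPM in control libraries (SD, n = 4 each). The log2 fold change of Ptgs2 was -2.10, with a 95% interval of -5.79 to 1.59 (edgeR adjusted p = 0.998). Its groups overlapped, with 0 counts in LTβR-Ig replicate 2 and in control replicate 4. Osm, the ligand of the oncostatin M receptor, had 4.63 CPM in LTβR-Ig and 6.04 CPM in control libraries on average. The Osm groups overlapped (1.98 to 6.82 CPM in LTβR-Ig and 2.00 to 10.0 CPM in control libraries, edgeR unadjusted p = 0.52). Cntfr, Ptgs2 and Osm were named after their values were seen.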
